A study of Mus musculus with 16 samples.

Results

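The 16 epididymal fat libraries were placed in an order by their level of adipocyte transcripts, and each gene was asked whether it rose or fell along that order. The order was chosen by the measured FPKM of 8 adipocyte genes. A library's adipocyte score was the mean of log2(FPKM + 1) over these 8 genes, each first centred on its mean in the library's own group of 4. All 16 libraries of the series entered, 4 in each of 4 groups. The score was then set against the 13263 other genes with a mean of at least 1 FPKM, out of 54532 gene identifiers in the deposited table. The 8 genes were Adipoq (adiponectin), Plin1 and Cidec (lipid droplet coat and fusion proteins), Fabp4 (a fatty acid carrier), Pparg and Cebpa (transcription factors of fat cell differentiation), Lipe (hormone-sensitive lipase) and Pnpla2 (adipose triglyceride lipase). These 8 define the order, so their own values along it are given as a description. Only the mean of the 8 before centring, which the order does not use, was tested between groups.

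White adipocytes store triglyceride in a large lipid droplet, make fatty acids from glucose, release them by lipolysis and secrete hormones such as leptin and adiponectin. They take up most of the volume of a fat pad but share it with macrophages, lymphocytes, mast cells, vessel cells, progenitors and mesothelium. In obese mice, epididymal fat is known for adipocyte death and for macrophages that gather around dead cells. A tissue RNA sample therefore mixes many cell types in shares that differ from animal to animal.

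TubA libraries came from mice given tubastatin A-HCl, an inhibitor of the deacetylase HDAC6, and Veh libraries from mice given vehicle, both at 25 weeks of age. AdKO libraries came from mice with an adipose-specific deletion of Hdac6, and AdCre libraries from mice that carry adiponectin-Cre as controls, both vehicle-treated and 28 weeks old. Every animal was a C57BL/6 male kept on a high-fat diet for 20 weeks. The labels give the TubA and Veh mice the genotype HDAC6 global knockout, whereas the series' design statement puts treated mice near 28 weeks of age and mentions no genotype. The sources used here do not settle this. Adiponectin-Cre acts in adipocytes, so other cells of the AdKO fat pad keep the gene. The TubA and Veh libraries are called the drug cohort and the AdKO and AdCre libraries the knockout cohort. Nothing in the labels states that the 4 samples of a group are separate animals, so the p-values measure the spread between these samples.

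Recovered depth ran between 18234386 and 24776803 reads per library. Depth, the sum of FPKM, the mitochondrial share and the share of the 20 highest genes had within-group r of 0.11, 0.0045, 0.46 and 0.41 with the score over 16 libraries, with exact permutation p of 0.597, 0.990, 0.230 and 0.153, all at least 0.460 after Benjamini-Hochberg adjustment over the 4. Their part in the slopes was not tested. Gpx5 and Adam7, made in the epididymal duct, stood at 5.97 and 1.91 FPKM in AdCre library 2, and Adam7 at 5.57 and Epcam at 22.8 FPKM in AdCre library 3. Adam7 was also listed at 0.615 FPKM in Veh library 1 and 0.358 in Veh library 3, and Gpx5 at 0.0803 FPKM in AdCre library 3, while both were listed at 0 in all TubA and AdKO libraries. Hdac6, the targeted gene, measured 1.70, 1.53, 1.44 and 1.59 in TubA libraries 1 to 4, 1.78, 1.41, 1.66 and 1.48 in Veh libraries, 4.11, 2.66, 3.44 and 3.52 in AdKO libraries, and 4.15, 4.15, 4.74 and 3.64 in AdCre libraries, in FPKM. AdKO and AdCre libraries overlapped, as did TubA and Veh libraries, while every drug-cohort library lay below every AdKO and AdCre library, and the slope on the score was -0.24 (SE 0.10, limma adjusted p = 0.108). The 2 cohorts also differ in age and labelled genotype, which cannot be told apart from the cohort.

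The score spread unevenly over the groups, and most of its range came from AdKO and Veh libraries. AdKO libraries 3 and 2 had the highest scores, 0.456 and 0.444, and AdKO libraries 4 and 1 the lowest, -0.565 and -0.335. Among Veh libraries, library 2 scored 0.420, library 4 scored 0.0656, library 3 scored -0.198 and library 1 scored -0.288. AdCre libraries scored -0.184, 0.182, -0.0338 and 0.0359 in the order of their numbers. TubA libraries stayed between -0.0736 and 0.0453. On a linear scale the highest library exceeded the lowest 1.09-fold in TubA, 1.63-fold in Veh, 2.03-fold in AdKO and 1.29-fold in AdCre. AdKO libraries held 68.7% of the score's sum of squares, Veh 24.9%, AdCre 5.71% and TubA 0.699%, so the slopes below are set mainly by 2 groups and TubA libraries carry almost no information on them.

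**Figure D1:**
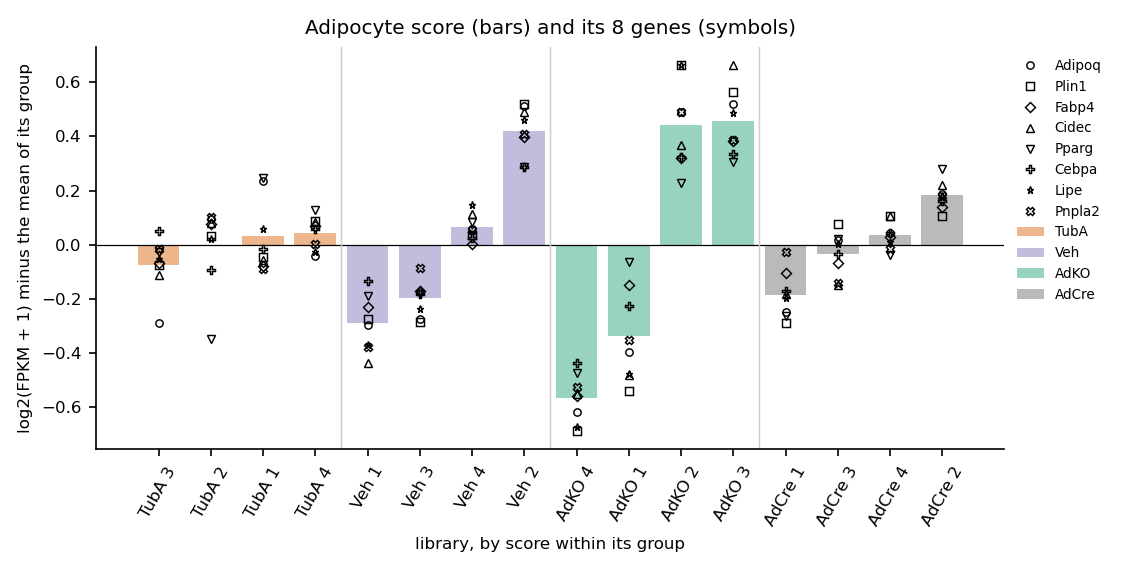
Adipocyte score (bars) and the 8 genes that make it (symbols) in each library, as log2(FPKM + 1) minus the mean of the library's group, with libraries ordered by score inside TubA, Veh, AdKO and AdCre. All 8 genes lie on the side of the score in the 4 Veh and 4 AdKO libraries, while TubA libraries stay between -0.0736 and 0.0453 with genes on both sides.

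The 8 genes moved together. All 8 had the sign of the score in each Veh and AdKO library and in AdCre libraries 1 and 2, whereas only 2 and 3 of the 8 did in TubA libraries 2 and 1. Adipoq ranged between 527 and 1227 FPKM over the 16 libraries, Lipe between 79.2 and 201 and Pparg between 19.7 and 55.8. Each gene's r with the mean of the other 7 lay between 0.79 (Pparg) and 0.98 (Lipe). Plin1 spread most, over 1.35 log2 units after centring, and Cebpa least, over 0.77. Uncentred, the mean of the 8 genes was 7.80 ± 0.0532 in TubA and 8.01 ± 0.318 in Veh libraries on the log2(FPKM + 1) scale (SD, n = 4 each), a difference of -0.21 (two-sided exact permutation p = 0.343). It was 8.20 ± 0.528 in AdKO and 8.56 ± 0.152 in AdCre libraries, a difference of -0.36 (two-sided exact permutation p = 0.343). The smallest p that 4 against 4 allows is 0.0286, and both pairs of groups overlapped. Without Veh library 2 the difference of TubA and Veh was -0.068, and without AdKO library 4 that of AdKO and AdCre was -0.17.

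Along the score, 3546 of the 13263 genes passed an adjusted p of 0.05 in limma (26.7% of all genes tested): 1985 rose (15%) and 1561 fell (11.8%). A slope here is the change in log2(FPKM + 1) per unit of score, so a gene with a slope of 1 follows the 8 genes in step. The slope was above 1 in 232 rising genes and lay below -1 in 87 falling genes, while the median slope over all genes tested was -0.019. FPKM is a share of all reads, so the scale of each library enters every slope; dividing by median-of-ratios factors put that median at -0.0146. The score direction held 20.7% of the within-group variance over all genes, and the first principal component of that variance, 22.9%, had an absolute r of 0.926 with the score. In whole tissue, fewer cells of a type and less RNA per cell cannot be told apart. Of the 3546 genes, 2146 had the same slope sign inside each of the 4 groups (60.5%, against 31.3% of all genes tested). AdKO and Veh libraries weigh most in the call, so it largely sets a called gene's sign in these groups. The contrast is therefore a description and no separate support. Without the 4 AdKO libraries 436 genes passed, without the 4 Veh libraries 2295, and without AdKO library 3 alone 2309.

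Promoter letters were read for genes that rise or fall with the score. The RefSeq windows on GRCm38.p6 run from 250 bases before to 50 after a gene's start. Shown are stretches upstream of the start with the matched letters in capitals, all 5′ to 3′ on the gene's own strand. Only genes with a match could be shown, so they do not stand for their lists. Lep is shown as a hormone gene that rises with the score and Prkar2b as 1 of the genes nearest to it. Spp1 and C1qc are shown as macrophage genes that fall.
Lep, chr6:29060131-29060208, plus strand: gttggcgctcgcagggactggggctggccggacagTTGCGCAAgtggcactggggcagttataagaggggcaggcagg
Prkar2b, chr12:32061317-32061392, minus strand: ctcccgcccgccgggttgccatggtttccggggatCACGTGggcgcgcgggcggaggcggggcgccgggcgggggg
Spp1, chr5:104434963-104435040, plus strand: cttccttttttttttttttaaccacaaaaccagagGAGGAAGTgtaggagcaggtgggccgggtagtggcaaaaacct
C1qc, chr4:136893067-136893144, minus strand: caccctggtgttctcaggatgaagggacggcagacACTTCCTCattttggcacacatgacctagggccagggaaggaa
In Lep the capitals mark TTGCGCAA, a sequence that C/EBP factors bind, with its first base at -55 from the start. In Prkar2b they mark the E-box CACGTG, first base at -80. In Spp1 they mark GAGGAAGT, a sequence that the myeloid factor PU.1 binds, first base at -113, and in C1qc the same letters on the other strand, first base at -195. The motifs were searched on both strands and do not overlap one another.

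TTGCGCAA stood in 0.252% of the promoters of rising genes, 0.518% of those of falling genes and 0.293% of those of all genes tested. GAGGAAGT stood in 1.71% of the 1986 promoters of rising genes, 5.7% of the 1545 of falling genes and 3.32% of the 12304 of all genes tested. CACGTG stood in 7.3%, 9.84% and 9.76% of the same 3 sets. Of the 13263 genes tested, 9640 had a window in the table, some with several starts. Most genes of the lists had no match. TTGCGCAA stood near 1 of 18 adipocyte identity genes with a window and CACGTG near 2 of 8 lipolysis genes. GAGGAAGT stood near 2 of 14 macrophage and 2 of 13 lipid-associated macrophage genes. These shares and counts describe letters in a short window and were not tested.

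Genes of adipocyte identity and secretion rose with the score: 27 of the 30 tested rose and none fell, with a median slope of 1.22. Leptin, resistin, adipsin and caveolin 1 were among them. The list was read on the same libraries as the 8 score genes, and 26 or 27 of its members rose when any 1 library was left out. Without the 4 AdKO libraries 13 of 30 passed, with a median slope of 1.11.

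Anxa6, an annexin that binds membranes and calcium, had the highest r with the score among called genes with 1 slope sign in every group. It measured 177, 173, 168 and 184 in TubA libraries 1 to 4, 158, 241, 171 and 199 in Veh libraries, 143, 247, 233 and 138 in AdKO libraries, and 225, 273, 248 and 257 in AdCre libraries, in FPKM. Inside TubA, Veh and AdCre the libraries stood in exactly the order of the score, and inside AdKO only libraries 2 and 3, whose scores differ little, had changed places. Anxa6 had a slope of 0.83 (SE 0.053) and an adjusted p of 1.6e-06 in limma. Over the 16 libraries it had a Pearson's r of 0.99 (exact permutation p = 9.0e-06) and Spearman's rho of 0.99 (exact permutation p = 3.3e-05), with r of 0.99 without the 2 libraries farthest from the median score. Its slope was 0.84 in the drug cohort and 0.83 in the knockout cohort.

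Prkar2b, the regulatory subunit of protein kinase A that dominates in adipocytes, is the gene whose upstream E-box is shown above. It measured 87.2, 88.2, 88.5 and 96.7 in TubA libraries 1 to 4, 88.5, 154, 92.1 and 108 in Veh libraries, 83.2, 176, 179.8 and 71.03 in AdKO libraries, and 135, 185, 172 and 198 in AdCre libraries, in FPKM. The 2 high AdKO libraries and Veh library 2 stood above the rest of their groups, and AdKO library 4 was the lowest of all 16. Prkar2b had a slope of 1.27 (SE 0.084) and an adjusted p of 1.7e-06 in limma, with r = 0.98 and rho = 0.93 over the 16 libraries (exact permutation p = 4.1e-04 and 8.9e-04, r without the 2 farthest libraries 0.96). The other genes with the highest r that have the same sign in all groups included Cav1, the coat protein of caveolae, with a slope of 1.05, Abcd2, a peroxisomal fatty acid transporter, with 1.12, Pla2g16, a phospholipase abundant in fat, with 1.09, and Fitm2, which partitions fat into droplets, with 1.22. Aoc3, an amine oxidase of adipocytes and vessels, Npr3, the natriuretic peptide clearance receptor, Klhdc7a and Ppip5k1 had slopes of 1.21, 1.33, 1.27 and 0.91. Adjusted p of these 8 genes lay between 1.6e-06 and 3.8e-06 in limma.

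Lep, the leptin gene whose promoter is shown above, rose with the score. It measured 352, 319, 265 and 430.3 in TubA libraries 1 to 4, 371, 797, 459 and 582 in Veh libraries, 346, 737, 673 and 288 in AdKO libraries, and 855, 935, 1035 and 979 in AdCre libraries, in FPKM. Within Veh and AdKO groups Lep followed the order of the score closely, and AdCre libraries, which span less of it, lay between 855 and 1035 FPKM. Lep had a slope of 1.30 (SE 0.14) and an adjusted p of 6.2e-05 in limma, with r = 0.93 and rho = 0.91 (exact permutation p = 2.3e-04 and 0.00290, r without the 2 farthest libraries 0.90). Its slope was 1.47 inside Veh, 1.28 inside AdKO and 0.30 inside AdCre libraries. Retn (resistin) had a slope of 1.72 (adjusted p = 0.00154), Cfd (adipsin, a complement protease) of 1.64 (adjusted p = 0.00139) and Rbp4 (the retinol carrier) of 1.58 (adjusted p = 2.1e-04) in limma. Lgals12, an adipocyte galectin, and Slc7a10, an amino acid transporter, had slopes of 1.01 and 1.01. Members that did not pass were Cd36 (slope 0.33, adjusted p 0.0959), Cyp2e1 (slope 1.29, adjusted p 0.260) and Fabp5.

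**Figure D2:**
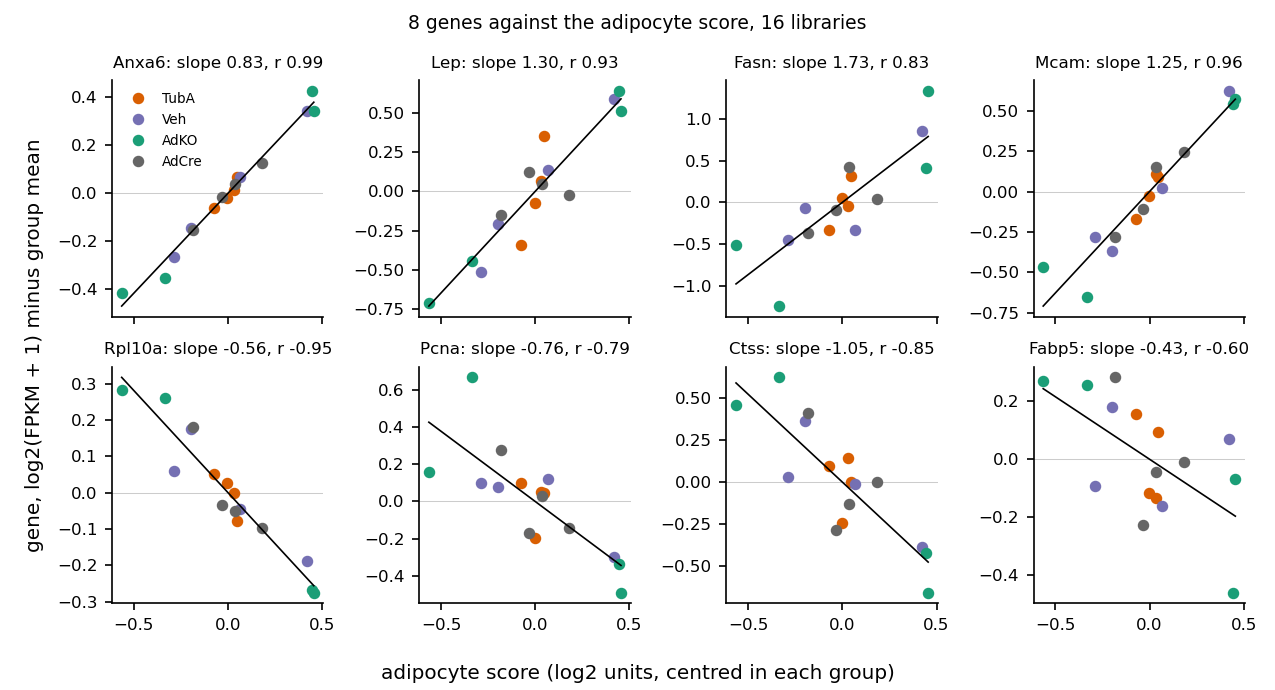
Each panel plots 1 gene's log2(FPKM + 1) minus its group mean against the adipocyte score for 16 libraries coloured by TubA, Veh, AdKO and AdCre, with the fitted slope as a line. Anxa6, Lep, Fasn and Mcam climb from AdKO libraries 4 and 1 to AdKO libraries 2 and 3, Rpl10a, Pcna and Ctss descend, and Fabp5 scatters.

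Fatty acid and triglyceride synthesis rose with the score almost as a block: 20 of 21 genes tested rose, none fell, and the median slope was 0.997. Elovl5, an elongase, was the member that did not pass. Fasn and Scd1 of this list had slopes of 1.73 and 1.71, within the 8 largest among called genes with 1 sign in every group. Without the 4 AdKO libraries 6 of 21 passed, with a median slope of 1.05.

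Fasn, fatty acid synthase, measured 68.7, 73.6, 56.1 and 87.9 in TubA libraries 1 to 4, 68.8, 171, 90.1 and 74.7 in Veh libraries, 39.2, 126, 240.2 and 65.97 in AdKO libraries, and 138, 185, 167 and 241 in AdCre libraries, in FPKM. AdKO library 3 stood far above the other AdKO libraries, and AdKO library 1, not the lowest-scoring library 4, was the lowest of them. Fasn had a slope of 1.73 (SE 0.33) and an adjusted p of 0.00204 in limma, with r = 0.83 and rho = 0.84 (exact permutation p = 0.0213 and 0.00924, r without the 2 farthest libraries 0.88). Scd1, the stearoyl-CoA desaturase, had a slope of 1.71 (adjusted p = 8.7e-04) and Me1, which supplies NADPH, of 1.51 (adjusted p = 0.00106) in limma. Dgat1, which adds the last fatty acid of triglyceride, had a slope of 1.06, Lpin1, a phosphatidate phosphatase, of 0.97, and the lipogenic transcription factors Mlxipl and Srebf1 of 0.74 and 0.73. Mest, linked to fat expansion in mice, and Dmrt2, a transcription factor gene, were also among the 8 most positive slopes, at 1.52 and 1.50.

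Of 10 lipolysis genes tested, 7 rose and none fell, with a median slope of 0.79. They included Mgll, the lipase of monoglycerides (slope 1.27), Adcy5, an adenylyl cyclase (slope 1.02), and Pde3b, the phosphodiesterase through which insulin restrains lipolysis (slope 0.92). Hilpda, a lipolysis inhibitor gene, was among the members that did not pass. Cholesterol synthesis had 12 of 22 genes rising and none falling, with a median slope of 0.41. Sc5d, which acts late in sterol synthesis, had a slope of 1.13, Insig1, a brake on the pathway, 1.23, and Mvk, mevalonate kinase, 0.56. Without the 4 AdKO libraries 5 of 10 lipolysis genes and 1 of 22 cholesterol genes passed.

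Counts differed widely among the lists of mitochondrial genes. The enzymes of the citric acid cycle and of branched-chain amino acid breakdown rose in 33 of 36 cases and those of fatty acid oxidation in 15 of 18, with none falling in either list and a median slope near 0.60 in both. Respiratory chain subunits encoded in the nucleus rose in 18 of 43 cases (41.9%, against 15% of all genes tested), with a median slope of 0.21. That count ran between 9 and 21 when 1 library was left out. Mitochondrial ribosome proteins rose in 2 of 28 (7.14%), with a median of 0.045. Without the 4 AdKO libraries 16 of the 36, 7 of the 18 and 1 of the 43 genes passed. Their median slopes were then 0.65, 0.71 and 0.28. The differences between these lists were not tested.

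Acadm, the medium-chain acyl-CoA dehydrogenase, measured 68.4, 71.4, 64.8 and 75.04 in TubA libraries 1 to 4, 64.7, 103, 66.3 and 83.5 in Veh libraries, 69.8, 102, 99.1 and 53.5 in AdKO libraries, and 90.99, 102, 101 and 118 in AdCre libraries, in FPKM. AdKO libraries 2 and 3 lay above AdKO libraries 1 and 4, and Veh library 2 above the other Veh libraries. Acadm had a slope of 0.85 (SE 0.086) and an adjusted p of 4.2e-05 in limma, with r = 0.95 and rho = 0.92 (exact permutation p = 7.4e-04 and 0.00131, r without the 2 farthest libraries 0.92). Hadh, Eci1 and Decr1, which act in the same oxidation spiral, had slopes of 0.81, 0.77 and 0.92.

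Mut, methylmalonyl-CoA mutase, which carries valine and isoleucine carbon into the citric acid cycle, measured 18.5, 16.6, 16.2 and 17.2 in TubA libraries 1 to 4, 17.4, 26.7, 17.7 and 21.5 in Veh libraries, 15.1, 28.7, 28.7 and 15.2 in AdKO libraries, and 20.7, 27.1, 27.6 and 28.1 in AdCre libraries, in FPKM. AdCre library 1 stood apart below the other AdCre libraries, and AdKO libraries 2 and 3 above AdKO libraries 1 and 4. Mut had a slope of 0.93 (SE 0.083) and an adjusted p of 1.6e-05 in limma, with r = 0.96 and rho = 0.89 (exact permutation p = 0.001004 and 0.00457, r without the 2 farthest libraries 0.95). Bckdha, of the branched-chain ketoacid dehydrogenase, Hibch and Aldh6a1, of valine breakdown, had slopes of 0.84, 0.91 and 1.07. Among nuclear respiratory genes, Atp5b and Atp5a1 of ATP synthase had slopes of 0.49 and 0.37, Cyc1 of complex III 0.47 and Ndufv1 of complex I 0.36. Atp5g1, also of ATP synthase, was the 1 falling member, at -0.23 (adjusted p = 0.0205). Of 13 genes encoded in mitochondrial DNA, mt-Nd5 alone rose (slope 0.46, adjusted p = 0.0159), and Mrps22 and Mrps7 were the 2 mitochondrial ribosome genes that rose (slopes 0.42 and 0.29). 

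Peroxisome genes rose in 17 of 22 cases with none falling, at a median slope of 0.52. Without the 4 AdKO libraries 7 of the 22 passed, with a median slope of 0.57. Hsd17b4, an enzyme of peroxisomal oxidation, Pex16 and Pex19, which insert peroxisomal membrane proteins, had slopes of 0.79, 0.87 and 0.63. No gene of the thermogenic list passed: 7 of its 8 tested genes had positive slopes, with a median of 0.41, and Ucp1, the uncoupling protein of brown and beige fat, had too low a mean for the test, at most 0.644 FPKM in any library. In insulin signalling, Akt2, Foxo1, Irs3 and Irs2 rose (slopes 0.53, 0.56, 0.79 and 0.66) and Ptpn1, a phosphatase that acts on the insulin receptor, fell (slope -0.47), out of 14 tested. The shares were 28.6% rising and 7.14% falling, against 15% and 11.8% of all genes tested. In the circadian list, Cry2, Nr1d1, Hlf and Dbp rose of 17 tested (23.5%, against 15% of all genes tested), with slopes of 0.83, 0.86, 0.68 and 0.39. Of 17 antioxidant genes 6 rose (35.3%) and Gpx1, a glutathione peroxidase, fell (slope -0.56, 5.88% of the list), while Gpx4, which reduces lipid peroxides, rose (slope 0.58).

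Vessel genes rose alongside the adipocyte genes. Of 18 blood endothelial genes 13 rose and none fell (median slope 0.56), and of 12 pericyte and smooth muscle genes 7 rose and none fell (median slope 0.77). The endothelial count ranged between 4 and 13 when 1 library was left out and was 2 without the 4 Veh libraries and 6 without the 4 AdKO libraries, whose libraries 1 and 4 differed in it: the list's centred level was 0.0046 in library 1 and -0.30 in library 4. The pericyte count was 7 or 8 when 1 library was left out and 3 without the 4 AdKO libraries.

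Mcam, an adhesion protein of pericytes and endothelium, measured 59.2, 53.8, 48.6 and 58.4 in TubA libraries 1 to 4, 57.8, 109, 54.2 and 71.6 in Veh libraries, 50.7, 117, 119.8 and 57.8 in AdKO libraries, and 90.7, 131, 103 and 123 in AdCre libraries, in FPKM. AdKO libraries 2 and 3 and Veh library 2 were the highest of their groups, and AdKO library 1 was the lowest AdKO library. Mcam had a slope of 1.25 (SE 0.11) and an adjusted p of 1.6e-05 in limma, with r = 0.96 and rho = 0.95 (exact permutation p = 0.00106 and 1.4e-04, r without the 2 farthest libraries 0.98). Kcnj8 and Abcc9, the channel subunits of pericytes, and Mylk, the kinase of myosin light chain, had slopes of 0.99, 0.83 and 0.74. Among endothelial genes, the VEGF receptors Flt1 and Kdr had slopes of 0.66 and 0.73, Cd300lg, of capillary and venule endothelium, 0.74, and the water channel Aqp1 0.74. The ligands Vegfa and Vegfb rose too (slopes 0.87 and 0.71), within a hypoxia and angiogenesis list in which 6 of 15 rose and Car9, a carbonic anhydrase, fell (slope -0.69). The shares were 40% rising and 6.67% falling, against 15% and 11.8% of all genes tested. Bnip3, of mitochondrial removal, and Epas1, the HIF-2 alpha gene, had slopes of 0.91 and 0.60 in that list.

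Of 41 collagen and matrix genes 8 rose (19.5%, against 15% of all genes tested) and 3 fell (7.32%, against 11.8%), with a median slope of 0.16, so the list as a whole stood near the background. The 4 rising members with the smallest p were chains of basement membrane (Col4a1, Col4a2, Col15a1 and Col18a1), which wraps adipocytes and vessels, and the 3 that fell were Timp1, an inhibitor of metalloproteinases, Mmp3, a metalloproteinase, and Tgfb1, a cytokine gene. Col4a2 measured 127, 129, 148 and 148 in TubA libraries 1 to 4, 142, 221, 121 and 151 in Veh libraries, 138, 228, 269 and 149 in AdKO libraries, and 248, 346, 234 and 282 in AdCre libraries, in FPKM. Veh library 2 and AdKO library 3 were highest in their groups, and AdKO library 1 was lowest in its own. Col4a2 had a slope of 0.91 (SE 0.14) and an adjusted p of 5.2e-04 in limma, with r = 0.88 and rho = 0.87 (exact permutation p = 0.00471 and 0.00312, r without the 2 farthest libraries 0.88), and its sign was reversed inside TubA libraries, where the slope was -0.74 over a narrow range of score. Col4a1, Col15a1 and Col18a1 had slopes of 0.81, 0.84 and 0.80, and Timp1, Mmp3 and Tgfb1 of -1.61, -1.21 and -0.52. The fibrillar collagen gene Col1a1 did not pass (slope -0.47, SE 0.60, limma adjusted p = 0.599). Of 20 progenitor and fibroblast genes only Icam1, an adhesion protein, passed, and it fell (slope -0.46), the median being 0.036. None of the 15 mesothelial genes passed (median -0.29).

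Macrophage genes fell as the adipocyte genes rose: 15 of 20 fell, none rose, and the median slope was -0.94. Cathepsin S, the complement C1q chains and F4/80 (Adgre1) were among them. Between 11 and 16 of the 20 fell when any 1 library was left out, but none passed without the 4 AdKO libraries, where the median slope was -0.84.

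Ctss, the cathepsin S gene, measured 1018, 777, 984 and 919 in TubA libraries 1 to 4, 958, 718, 1206 and 931 in Veh libraries, 1142, 551, 469 and 1019 in AdKO libraries, and 790.0, 596, 489 and 544 in AdCre libraries, in FPKM. AdKO libraries 1 and 4 stood well above AdKO libraries 2 and 3, and Veh library 2 was the lowest Veh library. Ctss had a slope of -1.05 (SE 0.19) and an adjusted p of 0.00144 in limma, with r = -0.85 and rho = -0.82 (exact permutation p = 0.0184 and 0.0183, r without the 2 farthest libraries -0.80). Aif1 (IBA1) and Itgam (CD11b) had slopes of -1.40 and -1.13, C1qa of -1.13, C1qc of -1.15 and Adgre1 of -0.89 (SE 0.22). C1qc is the gene with the PU.1 letters shown above. The 3 positive slopes of the list belonged to Lyve1, Cd163 and Timd4, genes of resident macrophages. None of these 3 passed, and Lyve1 had the largest of them (slope 1.07, SE 0.64, limma adjusted p = 0.241). Lst1, Ms4a6d and Fcgr1, all of myeloid cells, and Serpinb2, a plasminogen activator inhibitor of macrophages, were among the 8 most negative slopes of called genes with 1 sign in every group, at -1.56, -1.42, -1.39 and -1.96. Serpinb2 stood at 15.35 FPKM in AdKO library 4, against 0.803 to 2.90 in the other AdKO libraries. Its r was -0.68, and -0.46 without the 2 farthest libraries.

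Lipid-associated macrophages are the cells that gather around dead adipocytes. Of 17 of their genes tested 4 fell (Spp1, Trem2, Cd63 and Apoe) and 2 rose (Lpl, which adipocytes express strongly, and Acp5), with a median slope of -0.54. The shares were 23.5% falling and 11.8% rising, against 11.8% and 15% of all genes tested. Spp1, osteopontin, measured 125, 664, 917 and 168 in TubA libraries 1 to 4, 59.95, 56.1, 55.8 and 48.9 in Veh libraries, 386, 44.3, 95.1 and 364 in AdKO libraries, and 151, 53.1, 40.7 and 37.4 in AdCre libraries, in FPKM. TubA libraries alone ran between 125 and 917 FPKM at nearly equal scores, and AdKO libraries 1 and 4 stood above AdKO libraries 2 and 3. Spp1 had a slope of -2.27 (SE 0.76) and an adjusted p of 0.0405 in limma, with r = -0.64 and rho = -0.67 (exact permutation p = 0.0145 and 0.0109, r without the 2 farthest libraries -0.57). Its slope was -0.77 (SE 1.62) in the drug cohort and -2.79 (SE 0.60) in the knockout cohort. Trem2, the lipid receptor of these cells, had a slope of -0.88 (adjusted p = 0.0404), Cd63 of -0.77, Apoe of -0.76, Lpl of 0.50 and Acp5 of 0.37. Lysosome genes fell in 10 of 21 cases with none rising (median slope -0.41), among them Hexa, Lamp2 and Atp6v0c at -0.67, -0.36 and -0.41, and without the 4 AdKO libraries none of the 21 passed.

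Genes of antigen presentation, cytokines and mast cells fell in part. Of 11 dendritic cell and MHC class II genes 7 fell and none rose (median -0.71), the MHC chains H2-Aa, H2-Ab1 and H2-Eb1 at -1.05, -1.04 and -1.07 and their partner Cd74 at -0.92. Of 28 cytokine and chemokine genes 8 fell and 1 rose (median -0.73), with Ccl6 at -1.10, Cxcl16 at -0.92 and Tlr2 at -0.64. The shares were 28.6% falling and 3.57% rising, against 11.8% and 15% of all genes tested. Mast cell genes fell in 4 of 11 cases (36.4%), among them Fcer1a, the IgE receptor chain, and Cma1, a chymase, at -1.43 and -1.32. Without the 4 AdKO libraries none of these falling genes passed.

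The 1 cytokine-list gene that rose was Nos2, inducible nitric oxide synthase, usually counted as a gene of inflammatory macrophages. It measured 0.851, 0.729, 0.699 and 1.04 in TubA libraries 1 to 4, 1.10, 2.26, 1.22 and 1.68 in Veh libraries, 1.34, 2.04, 2.19 and 1.28 in AdKO libraries, and 2.42, 3.27, 2.10 and 2.19 in AdCre libraries, in FPKM. Levels were low throughout, and Veh library 2 stood highest in its group while AdKO library 4 stood lowest in its own. Nos2 had a slope of 0.61 (SE 0.12) and an adjusted p of 0.00247 in limma, with r = 0.86 and rho = 0.91 (exact permutation p = 0.00106 and 0.00148, r without the 2 farthest libraries 0.85), and its slope was positive inside all 4 groups.

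Lymphocyte genes had negative slopes but few passed. Of 22 T and NK cell genes 21 had negative slopes and 2 fell (9.09%, below the 11.8% of all genes tested), Cd8a and Gzmb (slopes -0.83 and -0.51). All 17 B and plasma cell genes had negative slopes, with a median of -0.99, and only Cd22 passed (slope -1.06). That is 5.88% of the list, also below the share of all genes tested. The B cell list varied more than the score did inside groups: its centred level was 0.70 in TubA library 1 and -0.50 in TubA library 3, whose scores differ little, and 0.82 in AdKO library 4 against -1.25 in AdKO library 2. Igkv4-80 is an immunoglobulin light chain segment. Among called genes with 1 sign in every group, predicted and clone-named genes left out, it had the most negative slope, -3.42 with an SE of 1.01. It measured 334 FPKM in Veh library 3, against 5.62 to 34.7 in the other Veh libraries, and 0 in AdKO library 2 and AdCre library 2. Such segments are near copies of one another and their counts may be split. Of 7 neutrophil genes only Csf3r passed (slope -0.90, 14.3% of the list), and of 23 interferon-response genes none did (median -0.24).

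**Figure D3:**
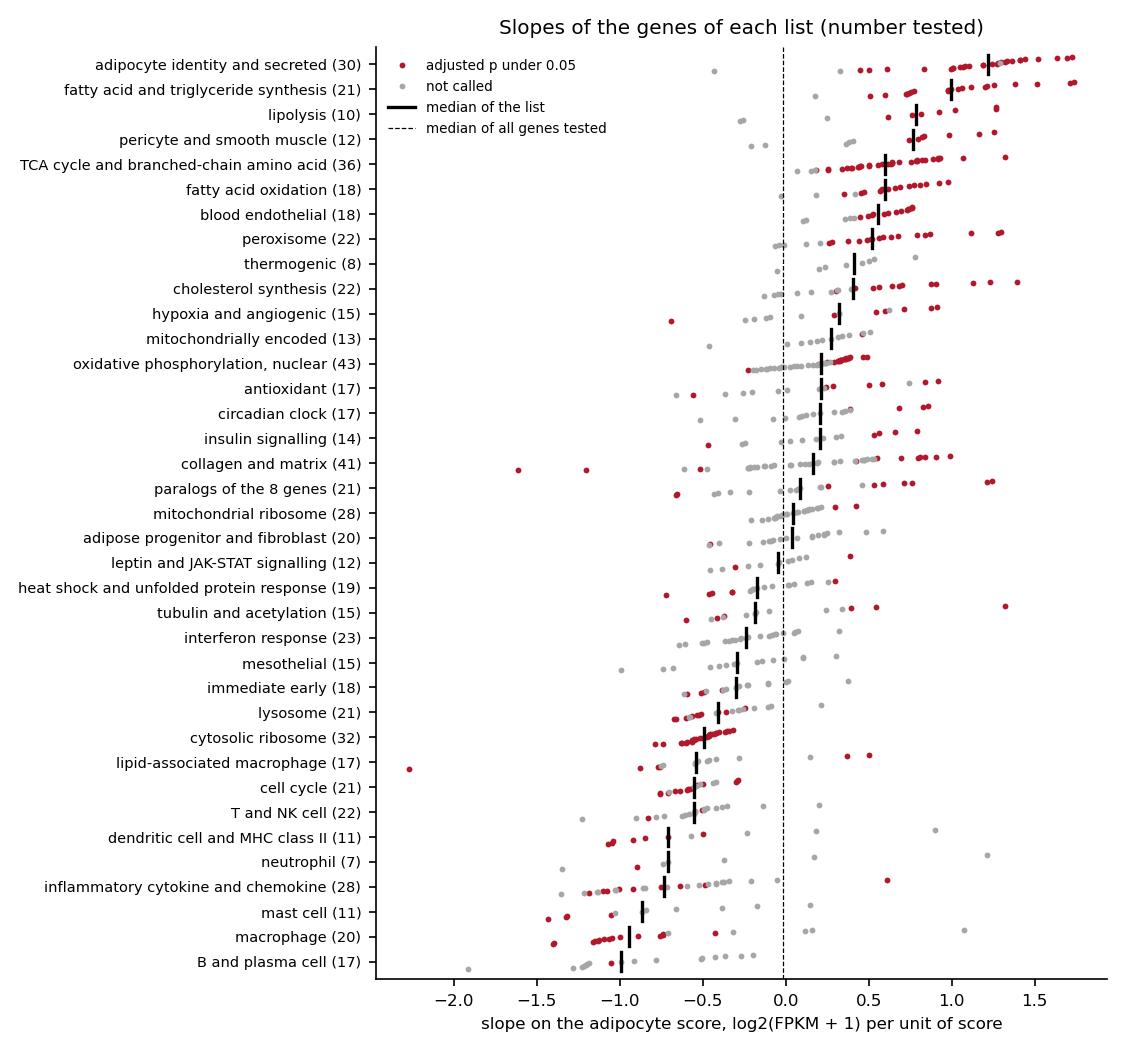
Slopes on the adipocyte score, in log2(FPKM + 1) per unit, of every tested gene of the lists with at least 7 tested genes, with genes at an adjusted p under 0.05 in red, other genes in grey the list median as a bar and the median of all genes tested as a dashed line. Medians run between 1.22 for adipocyte identity and -0.99 for B and plasma cells, and all 32 cytosolic ribosome genes lie below 0.

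Cytosolic ribosome genes fell without exception: 32 of 32 tested, with a median slope of -0.49. Their slopes lay between -0.79 and -0.32. At least 30 of the 32 fell when any 1 library was left out, and 4 did without the 4 AdKO libraries, at a median of -0.49. These genes are short, with a median exon length of 1800 bases against 4006 for all genes tested, and slopes had r = 0.15 with log2 exon length across 13251 genes (median length 4593.5 bases in rising and 3557 in falling genes). The part of length or RNA quality in their fall was not tested. Ribosomal protein genes have many processed pseudogenes, and how the authors assigned shared reads is not given in the sources used here.

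Rpl10a, a protein of the large subunit, measured 147, 149, 152 and 139 in TubA libraries 1 to 4, 140.1, 118, 152 and 130.2 in Veh libraries, 160.2, 111, 110.2 and 163 in AdKO libraries, and 140.4, 116, 121 and 119 in AdCre libraries, in FPKM. AdKO libraries 1 and 4 stood above AdKO libraries 2 and 3, and Veh library 2 was the lowest Veh library. Rpl10a had a slope of -0.56 (SE 0.063) and an adjusted p of 6.9e-05 in limma, with r = -0.95 and rho = -0.97 (exact permutation p = 5.2e-04 and 2.7e-05, r without the 2 farthest libraries -0.93). Of the 12 lowest r among called genes with 1 sign in every group, 7 were ribosomal protein genes: Rpl10a, Rpl35, Rpl22, Rpl30, Rpl3, Rps23 and Rpl23. The other 5 were Atf1, a CREB-family factor (slope -0.37), Emg1, which modifies ribosomal RNA (slope -0.41), Cd47, the signal against phagocytosis (slope -0.33), Set, a histone chaperone (slope -0.32), and Hnrnpa3, an RNA-binding protein (slope -0.44). Rps23 and Rpl35 had slopes of -0.74 and -0.65.

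Cell cycle genes all had negative slopes, and 14 of 21 passed (median -0.55). Pcna, the clamp of DNA replication, measured 60.9, 51.2, 62.9 and 60.6 in TubA libraries 1 to 4, 65.02, 49.2, 64.1 and 66.2 in Veh libraries, 83.5, 41.02, 36.7 and 58.3 in AdKO libraries, and 63.3, 47.03, 46.1 and 53.04 in AdCre libraries, in FPKM. AdKO library 1 stood above the other AdKO libraries, and Veh library 2 stood apart below the other Veh libraries. Pcna had a slope of -0.76 (SE 0.17) and an adjusted p of 0.00520 in limma, with r = -0.79 and rho = -0.77 (exact permutation p = 0.0295 and 0.0326, r without the 2 farthest libraries -0.84). Mcm6 and Mcm2, of the replication helicase, and Tk1, thymidine kinase, had slopes of -0.58, -0.50 and -0.67. The count ranged between 5 and 21 when 1 library was left out and was 2 without the 4 AdKO libraries. Of 18 immediate early genes 4 fell (22.2%, against 11.8% of all genes tested), with the transcription factors Myc and Junb at -0.60 and -0.49. Of 19 heat shock and unfolded protein genes 5 fell (26.3%), with the endoplasmic reticulum chaperones Hsp90b1 and Sdf2l1 at -0.46 and -0.73. The mitochondrial chaperone Hspd1 rose (slope 0.30), 5.26% of that list against 15% of all genes tested. Without the 4 AdKO libraries 0 of the 18 and 1 of the 19 passed.

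Close relatives of the 8 score genes did not all follow them. Of 21 paralogs tested 7 rose (33.3%, against 15% of all genes tested) and 2 fell (9.52%, against 11.8%), with a median slope of 0.084. Plin4, Pnpla3 and Pnpla8 rose (slopes 1.24, 1.21 and 0.58), and Fabp7 and Nceh1, a cholesterol ester hydrolase, fell (slopes -0.65 and -0.66). Fabp5, a relative of Fabp4 that is common to macrophages, measured 78.6, 79.4, 96.3 and 92.01 in TubA libraries 1 to 4, 85.2, 95.3, 103 and 81.2 in Veh libraries, 101, 60.8, 80.1 and 102 in AdKO libraries, and 116, 94.2, 80.8 and 91.8 in AdCre libraries, in FPKM. AdKO library 2 was the lowest of all 16, and in Veh, where the score spread widely, the slope was 0.029. Fabp5 had a slope of -0.43 (SE 0.16) and an adjusted p of 0.0649 in limma, with r = -0.60 and rho = -0.53 (exact permutation p = 0.113 and 0.0987). Plin2, the droplet coat found in many cell types, had a slope of -0.41 (SE 0.17) and an adjusted p of 0.0891. Of 15 tubulin and acetylation genes 3 rose and 3 fell, 20% each way, against 15% rising and 11.8% falling of all genes tested. The list as a whole therefore stood near the background. Tuba1a, an alpha-tubulin, was among those that rose (slope 1.32) and Tubb5, a beta-tubulin, among those that fell (slope -0.42).

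Several lists of cells that a fat pad can hold or carry along were small or low. All 5 erythroid genes had positive slopes, with a median of 1.90, and none passed: Hba-a1 and Hba-a2, the alpha-globin copies, whose reads may be split between them, had slopes of 2.01 and 1.49 (adjusted p = 0.0764 and 0.190). The list's centred level ran between -1.32 in AdCre library 1 and 1.79 in AdKO library 2, and the part of blood in the slopes of other genes was not tested. Of 3 lymphatic genes Flt4, the receptor of VEGF-C, rose (slope 0.59), and of 4 Schwann cell and nerve genes Scn7a, a sodium channel, rose (slope 0.59). None of the 2 epididymal, 3 skeletal muscle and 2 lymph node stroma genes tested passed, with medians of -0.22, 0.12 and -0.99. In leptin and JAK-STAT signalling, Stat5a rose and Ptpn2, a phosphatase of JAK kinases, fell (slopes 0.39 and -0.30), out of 12 tested, 8.33% each way, below the shares of all genes tested.

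**Figure D4:**
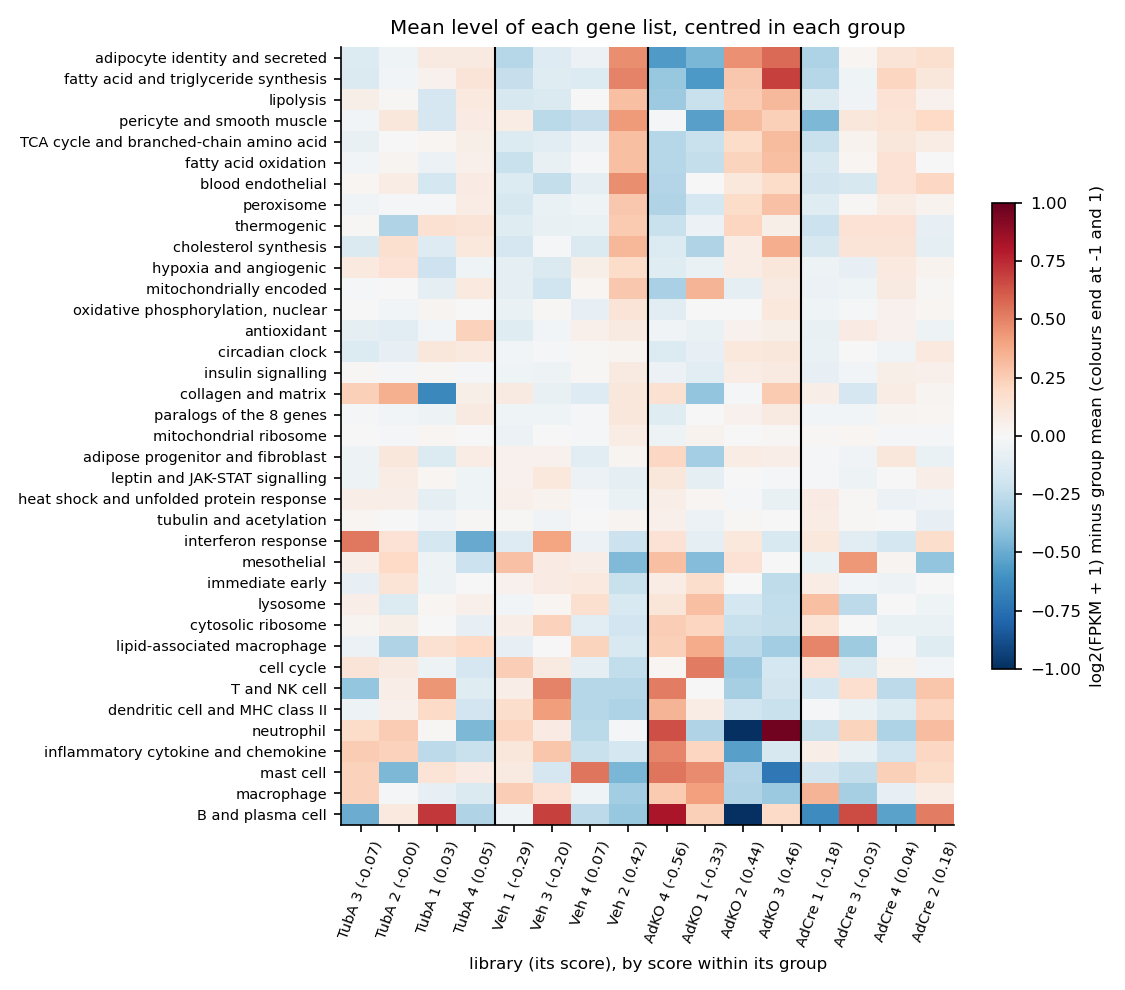
Mean centred log2(FPKM + 1) of each gene list in each library, red above and blue below the group mean, with libraries ordered by score inside TubA, Veh, AdKO and AdCre and lists ordered by median slope. The upper lists turn from blue to red across Veh and AdKO libraries and the ribosome and macrophage lists the other way, while B cell and neutrophil lists change by more than the score does inside groups.

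The order could be read in each cohort by itself, on libraries that are not shared. Of the score's sum of squares, Veh libraries held 24.9% and TubA libraries 0.699%, AdKO libraries 68.7% and AdCre libraries 5.71%. The drug-cohort slopes are therefore set mainly by Veh libraries and the knockout-cohort slopes mainly by AdKO libraries. In the knockout cohort 1132 genes passed (8.54% of all genes tested), 778 rising (5.87%) and 354 falling (2.67%), but 20 passed without AdKO library 3, 72 without AdKO library 2, 406 without AdKO library 1, 464 without AdCre library 1 and 460 without AdCre library 4. In the drug cohort 31 passed (0.234%), 30 rising (0.226%) and 1 falling (0.00754%), Ms4a6c, a myeloid membrane gene, and 28 of the 31 also passed in the knockout cohort. Leaving out any 1 library of the drug cohort left no gene called there. With all 8 libraries the smallest adjusted p was 0.0469 in limma, so all 31 calls lay just under the cutoff of 0.05. Of the 1132 knockout-cohort genes, 1102 had the same slope sign in the drug cohort (97.35%, against 74.1% of all genes tested). Their median drug-cohort slope was 0.70 for the 778 that rose and -0.44 for the 354 that fell. Across all genes the slopes of the 2 cohorts had r = 0.51 and rho = 0.63, as a description over genes, which are not independent.

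No gene's slope differed between the cohorts in limma at an adjusted p of 0.05. At an unadjusted p of 0.05, 363 of 13263 genes differed, and the smallest adjusted p was 0.9999. Median slopes of lists were 1.04 in the drug and 1.22 in the knockout cohort for adipocyte identity, -0.48 and -0.50 for the cytosolic ribosome, and -0.88 and -0.98 for macrophages. Medians lay further apart in other lists: 0.99 in the drug and 0.47 in the knockout cohort for blood endothelium, -0.11 and -0.64 for lipid-associated macrophages, 0.68 and 0.13 for mitochondrially encoded genes, -0.83 and -0.090 for mesothelium, -0.60 and -0.090 for interferon response, and 0.49 and 2.38 for erythroid genes. These differences of list medians were not tested. In simulated data a slope difference of 2 was recovered in 35 of 50 changed genes, of 1 in 18 and of 0.5 in 0.

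**Figure D5:**
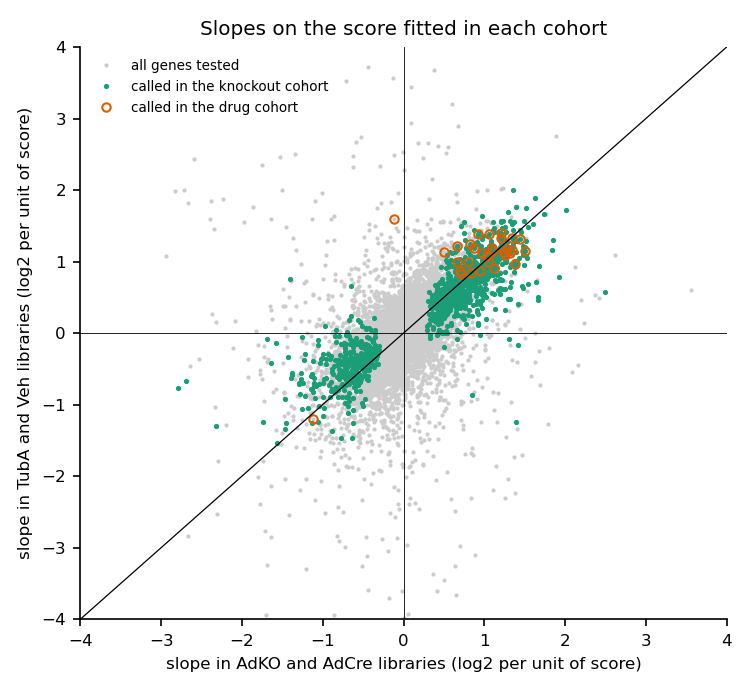
Each point is 1 of the genes tested, with its slope on the adipocyte score in the TubA and Veh libraries (vertical axis) against that in the AdKO and AdCre libraries (horizontal axis), in log2(FPKM + 1) per unit of score, and the line marks equal slopes. Genes called in the knockout cohort (green) lie mostly in the quadrants of equal sign, 1102 of 1132, and 17 genes fall outside the plotted range of 4.

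The score was then entered as a covariate in the group comparisons. With the centred score, AdKO minus AdCre had 117 genes past an adjusted p of 0.05 in limma (0.882% of all genes tested), 22 higher (0.166%) and 95 lower (0.716%) in AdKO, against none without the score (1452 at an unadjusted p of 0.05). Centring takes the score's spread inside groups out of the error but leaves the groups' own difference in adipocyte level, -0.36, in the estimate, so these p-values are too small for genes that follow the score. Of the 117 genes, 86 also had a called slope, and 79 were lower in AdKO with a rising slope. No gene passed without AdKO library 1 or 4 or AdCre library 3 or 4, 28 and 20 passed without AdCre library 1 and 2, and 244 and 311 without AdKO library 2 and 3. With the level of the 8 genes entered uncentred, a choice made after seeing the data, none of the 13263 genes passed (1100 at an unadjusted p of 0.05, smallest adjusted p 0.164). The median absolute difference of the 117 genes was 0.58 with the centred score and 0.36 with the uncentred level.

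Lep, leptin, averaged 511 ± 227 FPKM in AdKO and 951 ± 75.7 FPKM in AdCre libraries (SD, n = 4 each). The difference on the log2 scale was -1.01, with an SE of 0.31 without the score (adjusted p = 0.351) and of 0.10 with the centred score (adjusted p = 0.0267) in limma. With the uncentred level it was -0.58 (SE 0.12, adjusted p = 0.320). The 4 lower genes with the smallest p were Cox4i2, a respiratory subunit isoform, Etfb, of electron transfer in fatty acid oxidation, Prdx6, a peroxiredoxin, and Pex16, at -0.91, -0.98, -0.57 and -0.56 with the centred score, against -0.66, -0.80, -0.38 and -0.26 with the uncentred level. Bst1, an ectoenzyme, and Prr15 were among the 4 higher genes with the smallest p, at 0.70 and 1.09 with the centred score and 0.35 and 0.99 with the uncentred level.

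TubA minus Veh gave no gene past an adjusted p of 0.05 in limma, with the centred score (2184 at an unadjusted p of 0.05, smallest adjusted p 0.0993), without it (1597) or with the uncentred level (1375). The centred score changed the standard error by a median factor of 0.960 in the drug cohort and of 0.895 in the knockout cohort.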

How the data were processed

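RNA of 16 mouse epididymal white fat samples was sequenced, and the authors deposited FPKM values (fragments scaled to exon length and to library size) per gene and library. No aligner, counter or genome build is named in the labels. With exon lengths from the GENCODE M21 annotation, between 96.3% and 96.51% of values per library came out as whole reads within 0.01, which gave the recovered depth.

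Values were used as log2(FPKM + 1). The adipocyte score was built as described, and limma 3.58.1 in R 4.3.3 (trended prior variance, Benjamini-Hochberg adjustment over 13263 genes) fitted group plus score over the 16 libraries. A slope per cohort, the difference of the 2 slopes, and group differences with and without the score came from fits of the same kind. Correlations used values centred by group, with 331776 exact permutations of libraries within groups, two-sided; these p-values are not adjusted, whereas adjusted p-values are limma's over all genes tested. Python 3.11.15 with numpy 2.4.6, pandas 2.3.3, scipy 1.17.1 and matplotlib 3.10.9 did the rest. In data simulated for the 16-library fit on 13263 genes, 42 of 50 genes with a slope of 1 and 25 of 50 with a slope of 0.5 were recovered, beside 6 false calls. Noise in the simulated data was drawn separately for each gene, and 50 genes were changed at each of the sizes 0.25, 0.5, 1 and 2. In the data 26.7% of genes were called, so the 6 false calls give no error rate for the 3546 genes.

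The score genes and the 43 gene lists were chosen with earlier results of these data known. Genes were named by rule: the 12 highest and 12 lowest r and the 8 most positive and most negative slopes among called genes with 1 sign in every group, up to 4 members with the smallest p of each list with 3 or more calls, a short fixed set (Lep, Retn, Hdac6, Plin2, Fabp5, Adgre1, Trem2, Col1a1, Gpx5 and Ucp1), and the 4 smallest p per direction in the covariate fits. Predicted and clone-named genes were left out, and not every gene that the rule gives is described. Named outside the rule, after their values were seen, were Acp5, Adam7, Atp5g1, C1qc, Car9, Cd163, Cd22, Cd36, Cd8a, Csf3r, Cyp2e1, Elovl5, Epcam, Fabp7, Flt4, Gzmb, Hba-a1, Hba-a2, Hilpda, Hspd1, Icam1, Lyve1, Mmp3, Mrps22, Mrps7, Ms4a6c, mt-Nd5, Nceh1, Ptpn1, Ptpn2, Scn7a, Stat5a, Tgfb1 and Timd4. Alternatives changed the pseudocount, filter, scaling, score, variance trend, replicate block and the libraries kept.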

Additional observations from a re-analysis of the deposited data

Results flagged for a closer look

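In the score and the 15 genes whose values are given in every library, 64 groups of 4 libraries were checked for a single library far from the other 3, and 4 were flagged, where chance flags about 1 in 20. Prkar2b in TubA library 4 stood at 96.7 FPKM, against 87.2 to 88.5 in the other TubA libraries. Mut in AdCre library 1 stood at 20.7 FPKM, against 27.1 to 28.1 in the other AdCre libraries. Spp1 in AdCre library 1 stood at 151 FPKM, against 37.4 to 53.1 in the other AdCre libraries. Pcna in Veh library 2 stood at 49.2 FPKM, against 64.1 to 66.2 in the other Veh libraries. AdCre library 1 and Veh library 2 are the lowest and highest scores of their groups, and TubA library 4 is the highest of its own.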

How the results depend on the processing

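The count of 3546 genes over 16 libraries moved by more than 1.5 times under the replicate block (1650), without the 4 Veh libraries (2295) and without the 4 AdKO libraries (436), and leaving out 1 library gave 2309 to 3846. Under the block 2 of 18 blood endothelial and 1 of 12 pericyte genes rose. Falling were 6 of 20 macrophage, 0 of 21 lysosome and 2 of 21 cell cycle genes. Other lists held: 28 of 30 adipocyte identity and 7 of 10 lipolysis genes rose. All 32 cytosolic ribosome genes and 7 of 11 dendritic cell and MHC class II genes fell. The 31 genes of the drug cohort became 0 with no filter, without the variance trend, under the block and with a score without Adipoq, Plin1 or Fabp4, 59 without Lipe, 139 with a median score and 218 at a mean FPKM of at least 5, and 0 to 0 without any 1 library. The 1132 genes of the knockout cohort became 166 with no filter, 0 under the block and 420 without AdCre libraries 2 and 3 together, the libraries with the highest Adam7, and 20 to 1422 without any 1 library (730 without AdCre library 2). The difference of slopes gave 4 genes with no filter and 0 to 0 without any 1 library, and TubA minus Veh gave 3 and 0 to 1 in the same settings. AdKO minus AdCre with the centred score, 117 genes, gave 1 with no filter, 225 at a mean of at least 5, 71 without the trend, 0 under the block, 0 without AdCre libraries 2 and 3 together, 0 with the uncentred level, chosen after seeing the data, and 0 to 311 without any 1 library. The causes were not tested. The differences in the mean level of the 8 genes kept their sign in all 14 alternatives each but ran between -0.068 and -0.30 for TubA minus Veh (-0.13 with TPM) and between -0.17 and -0.51 for AdKO minus AdCre without any 1 library. With a library left out or under the block, the exact test cannot go below 0.0571 and 0.125, so those p-values could not pass.

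Of the slopes of single genes printed, over all alternatives, 6105 values kept direction and call, 389 lost the call, 12 gained it and Lyve1 changed sign, at -0.61 without the 4 AdKO libraries. Without the 4 AdKO libraries 94 slopes lost their call and under the block 46. Dbp lost its call in 23 of 40 alternatives, Acp5 in 21, Flt4 in 20 of 39, Timp1 in 20, Trem2 in 16 and Spp1 in 14. Count-based limma voom on recovered reads, also chosen after seeing the data, called 3569 genes.

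Deviations of same-numbered libraries correlated at -0.104 to 0.0178 between TubA and Veh and at -0.233 to 0.33 between AdKO and AdCre. Libraries with different numbers were not compared, so whether replicate numbers pair the libraries was not tested. With TubA scores spanning 0.119, slopes inside TubA are poorly fixed by these data.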
